A study of Homo sapiens with 24 samples.

Results

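A set of 9 receptor tyrosine kinases outside the ERBB family was followed through knockdown of TFAP2C, which encodes AP-2gamma, a transcription factor, in HER2-positive breast carcinoma cells. They are MET, EPHA2, EPHB4, FGFR2, FGFR4, DDR1, MST1R, RET and PTK7. They were chosen by name, as receptors that might carry signal beside HER2. All 9 were found among the 27431 gene symbols of the 3 genome-wide expression tables, through 48 RefSeq transcript entries. Each gene's level is the sum of its entries in FPKM, fragments scaled for transcript length and sequencing depth, so that levels can be set side by side between genes.

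RNA sequencing was done in 24 samples in 8 groups of 3, from the lines SKBR3, HCC1954 and HCC1569. The 6 groups used here form 3 comparisons of a TFAP2C knockdown with its own control. In SKBR3 and in HCC1954, siRNA against TFAP2C (siAP2C) was set against non-targeting siRNA (siNT), with cells taken 72 to 96 h after transfection. In HCC1954, a lentiviral shRNA against TFAP2C (shAP2C) was set against a control shRNA (shNT), both carried by stable clones, whose number the labels do not give. The HCC1569 table holds 68 selected genes and 0 of the 9 receptors, so that line is not analysed here. Every group was HER2-positive by the series' design text, was untreated apart from the knockdown agent, and came from cells that the submitters had not authenticated. The columns of the HCC1954 siRNA table name the siRNA but no line, and the line was taken from the name of the deposited table. Each table gives 1 pooled value per group, so no spread between the 3 samples can be shown, and nothing in the labels says that the 3 were separate cultures. The depth behind each value is unknown.

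TFAP2C mRNA went from 157 to 53.9 FPKM in SKBR3, from 92.4 to 22.0 FPKM in HCC1954 siRNA cells, and from 81.0 to 3.46 FPKM in the HCC1954 clones. It fell in all 3 comparisons. The shAP2C cells stood apart in other ways. Their 2 markers of the HER2-positive state, ERBB2 and its amplicon neighbour GRB7, summed to 27.9 FPKM against 1975 FPKM in shNT cells, while siAP2C cells held 720 FPKM in SKBR3 and 5597 FPKM in HCC1954. KRT19, an epithelial keratin, stood at 634 FPKM in shAP2C and 19.9 FPKM in shNT cells, and CDH1 (E-cadherin) at 20.7 and 149 FPKM. Across 10207 genes with at least 1 FPKM in all 6 groups, the rank correlation between knockdown and control levels was 0.784 for the shRNA pair, 0.989 for HCC1954 siRNA and 0.965 for SKBR3 siRNA. The shNT cells correlated at 0.844 with HCC1954 siNT cells and at 0.775 with SKBR3 siNT cells, while the shAP2C cells correlated at 0.697 and 0.728 with them, the higher value being that with SKBR3. These values describe pooled groups over genes that are not independent. Whether the shAP2C cells are a pure derivative of HCC1954 could not be checked from the tables. A different origin or state of these cells and the loss of TFAP2C cannot be told apart, which holds for every shAP2C value below, and the shRNA results are given apart from those of the siRNA. Summed epithelial markers were 1638 to 5449 FPKM in the 6 groups, and fibroblast markers 0.340 to 1.96 FPKM. Single epithelial genes differed between the lines. CDH1 read 0.0894 and 0.0970 FPKM in SKBR3 siNT and siAP2C cells, and 261 and 269 FPKM in those of HCC1954. KRT19 read 2135 and 1297 FPKM in SKBR3 siNT and siAP2C cells, and 7.51 and 4.01 FPKM in those of HCC1954. The leukocyte genes PTPRC and CD3E stayed at or under 0.0696 FPKM, and CD68 read 4.64 to 36.6 FPKM. Of 3 endothelial genes, CDH5 read 10.8 and 29.2 FPKM in SKBR3 siNT and siAP2C cells, and 4.04 and 0.559 FPKM in those of HCC1954. In the clones CDH5 read 9.59 FPKM in shNT and 0 in shAP2C cells. PECAM1 read 27.0 FPKM in HCC1954 siNT, 11.6 FPKM in shNT and 0.0180 FPKM in shAP2C cells, while VWF stayed at or under 0.412 FPKM. Their part in the receptor results was not tested.

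Receptor tyrosine kinases sit in the cell membrane, bind a ligand outside the cell and phosphorylate tyrosines inside it. Most of them feed the same RAS-MAPK and PI3K-AKT routes that HER2 drives. In HER2-positive breast cancer, signalling through such a receptor while HER2 is blocked or lost is known as bypass, and MET, the FGF receptors, EPHA2 and AXL are receptors for which it has been described. Bypass needs active protein, and the present data hold mRNA alone. They show which receptors had mRNA and which changed in mRNA level, with no measure of receptor protein or its activity.

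AP-2 factors bind palindromic GC-rich sites, and the promoters of the 9 receptors were searched for GCCNNNGGC, which is its own reverse complement and so reads alike on both strands. RefSeq promoter sequences (GRCh38.p14) run from 250 bases before to 50 bases after a start site. Of 35116 promoters of this length, 23.2% hold the motif, and of 23 promoters of the 9 receptors, 6 (26.1%) do. These 6 belong to 5 of the 9 receptors, EPHB4, FGFR4, DDR1, RET and PTK7. Of all 27305 genes, 26.6% hold the motif in at least 1 promoter, and receptors with several promoters have more chances to hold it. The promoters printed here are those of EPHB4, which fell in SKBR3, and MET, which rose there, and were picked by those responses. EPHA2, which also rose in SKBR3, has no match. Of the receptors with the motif, EPHB4 fell and PTK7 rose in the clones. Of those without it, MET, EPHA2 and MST1R fell and FGFR2 rose there. Whether the motif goes with the response was not tested. The EPHB4 promoter (GRCh38.p14 chr7:100827474-100827773, minus strand) has the motif 91 bases before its start site, in capitals. The MET promoter (GRCh38.p14 chr7:116671946-116672245, plus strand) has no match and is all in lower case. A match describes letters and not binding, and no match says only that these letters are not in this window.
EPHB4 promoter: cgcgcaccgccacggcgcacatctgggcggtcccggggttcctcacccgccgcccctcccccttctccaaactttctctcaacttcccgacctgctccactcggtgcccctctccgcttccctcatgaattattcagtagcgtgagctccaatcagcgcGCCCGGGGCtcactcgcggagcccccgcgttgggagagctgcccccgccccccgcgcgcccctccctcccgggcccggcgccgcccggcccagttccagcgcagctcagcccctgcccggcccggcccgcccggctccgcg
MET promoter: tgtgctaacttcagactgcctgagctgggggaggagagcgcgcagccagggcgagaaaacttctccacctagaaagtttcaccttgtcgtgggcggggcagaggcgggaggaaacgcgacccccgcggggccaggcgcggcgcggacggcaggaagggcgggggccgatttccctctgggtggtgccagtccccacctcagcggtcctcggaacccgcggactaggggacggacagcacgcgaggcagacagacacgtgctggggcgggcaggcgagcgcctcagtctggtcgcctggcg

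A receptor was called changed where its leading transcript entry, the tested entry with the highest mean of both groups, had a q under 0.05 in the authors' deposited table. In SKBR3, 3 of 5 tested receptors were called, against 33.2% of 10046 genes tested in that comparison. MET and EPHA2 rose (12.5% of all tested genes rose) and EPHB4 fell (20.7% fell). In HCC1954 with siRNA, 1 of 7 was called, against 3.21% of 11078 genes, and it was MET, which rose (2.27% rose and 0.948% fell). In HCC1954 with shRNA, 6 of 7 were called, against 75.5% of 9734 genes, so that count is close to the background. FGFR2 and PTK7 rose there (36.4% rose), and MET, EPHA2, EPHB4 and MST1R fell (39.1% fell). The median log2 ratio of the tested receptors was 0.02, 0.14 and −0.58 in the 3 comparisons in that order, against −0.09, −0.01 and −0.03 over all tested genes. Without the shRNA clones, the calls that remain are the rises of MET in both lines, the rise of EPHA2 in SKBR3 and the fall of EPHB4 in SKBR3. In these bulk samples, fewer cells with a transcript and less transcript per cell cannot be told apart.

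**Figure D1:**
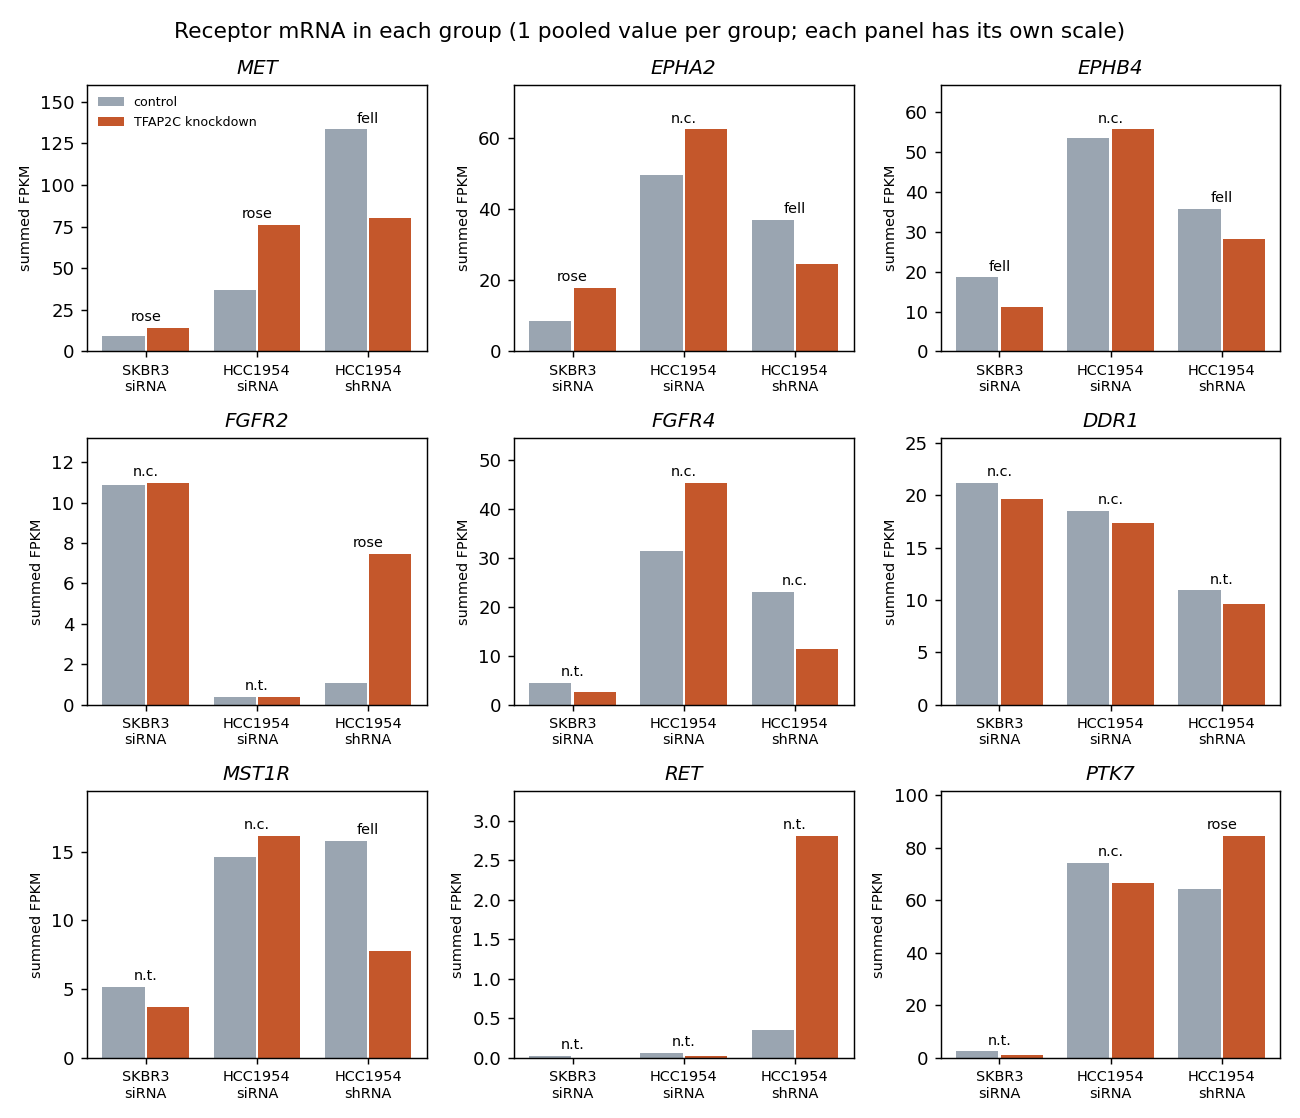
Summed FPKM of each receptor (vertical axis, linear, a separate scale per panel) in control (grey) and TFAP2C knockdown (orange) for the 3 comparisons; bars are pooled values with no error available, and the words give the call (n.c., tested and not called; n.t., not tested). MET is higher after siRNA knockdown in both lines and lower after shRNA knockdown, where its control stands at 133 FPKM.

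MET (GRCh37 chr7:116312250-116438431, plus strand) encodes the receptor of hepatocyte growth factor, HGF. Its mRNA was listed at 9.06 FPKM in SKBR3 siNT and 14.2 FPKM in SKBR3 siAP2C, a level 1.56-fold higher after knockdown. In HCC1954 it was 36.7 FPKM in siNT and 76.0 FPKM in siAP2C, 2.07-fold higher. In the HCC1954 clones it was 133 FPKM in shNT and 80.0 FPKM in shAP2C, 1.67-fold lower. Knockdown cells were thus above their control in both siRNA comparisons and below it in the clones. The leading entry in all 3 tables was NM_000245. Its log2 ratio was 1.18 ± 0.54 (SE, the log2 ratio over the deposited statistic) in SKBR3, with q = 0.00489 in the authors' deposited table. In HCC1954 it was 0.99 ± 0.44 with siRNA (q = 0.00425 in the authors' deposited table) and −0.70 ± 0.21 with shRNA (q = 1.21e-04 in the authors' deposited table). The rise in SKBR3 belonged to that entry: NM_000245 went from 3.66 to 8.30 FPKM, from 40.4% to 58.5% of the MET sum. NM_001324402, with 49.1% of the sum in siNT cells, read 4.45 and 3.88 FPKM and was not called (q = 0.503 in the authors' deposited table). In shAP2C cells a second entry, NM_001127500, fell with the leading one, from 26.7 to 11.9 FPKM (q = 0.00265 in the authors' deposited table).

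MST1R (GRCh37 chr3:49924435-49941306, minus strand), also called RON, is the close relative of MET that binds macrophage-stimulating protein. It read 5.16 and 3.73 FPKM in SKBR3 siNT and siAP2C, where no entry was tested. In HCC1954 it read 14.6 and 16.2 FPKM with siRNA, and its leading entry NM_002447 was not called (q = 0.889 in the authors' deposited table). In the clones it fell from 15.8 to 7.75 FPKM, 2.03-fold lower, with q = 0.00753 in the authors' deposited table for NM_001244937 and a log2 ratio of −0.92 ± 1.02 (SE). That SE, taken from the deposited statistic, exceeds the ratio itself. Of the exonic bases of MST1R, 6.78% are shared with non-coding genes of the opposite strand, and the counting is not stated to use strand.

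EPHA2 and EPHB4 are receptors for ephrins, ligands that sit on neighbouring cells. EPHA2 (GRCh37 chr1:16450832-16482564, minus strand) is known in breast cancer for growth-promoting activity with little ligand and for working with HER2. Its level was 8.63 FPKM in SKBR3 siNT and 17.9 FPKM in siAP2C, 2.07-fold higher. In HCC1954 it was 49.5 and 62.4 FPKM with siRNA, and 37.0 and 24.7 FPKM with shRNA, 1.497-fold lower in the knockdown. EPHA2 thus rose in SKBR3 (log2 ratio of NM_001329090 1.11 ± 0.52, q = 0.00836 in the authors' deposited table) and was not called in HCC1954 with siRNA (0.28 ± 0.56, q = 0.738 in the authors' deposited table). It fell in the clones by its leading entry, from 28.8 to 14.0 FPKM (q = 1.21e-04 in the authors' deposited table). The other EPHA2 entry, NM_004431, read 8.18 and 10.7 FPKM there and was not called (q = 0.283 in the authors' deposited table), so the fall of the sum is smaller than that of the leading entry.

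EPHB4 (GRCh37 chr7:100400187-100425145, minus strand) binds ephrin-B2 and has the motif-bearing promoter shown above. It has a single entry, NM_004444, so its call and its level are the same quantity. It fell in SKBR3 from 18.6 to 11.03 FPKM, 1.69-fold lower, with a log2 ratio of −0.75 ± 0.29 (SE) and q = 4.41e-04 in the authors' deposited table. In HCC1954 siRNA cells it stood at 53.6 and 55.7 FPKM and was not called (q = 0.937 in the authors' deposited table). In the clones it fell from 35.8 to 28.2 FPKM, 1.27-fold lower. Its direction in SKBR3 was opposite to that of EPHA2, the other ephrin receptor among the 9. Outside the 9, the ephrin receptors EPHA1 (8.55 to 5.05 FPKM) and EPHB3 (13.5 to 10.0 FPKM) also fell in SKBR3.

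**Figure D2:**
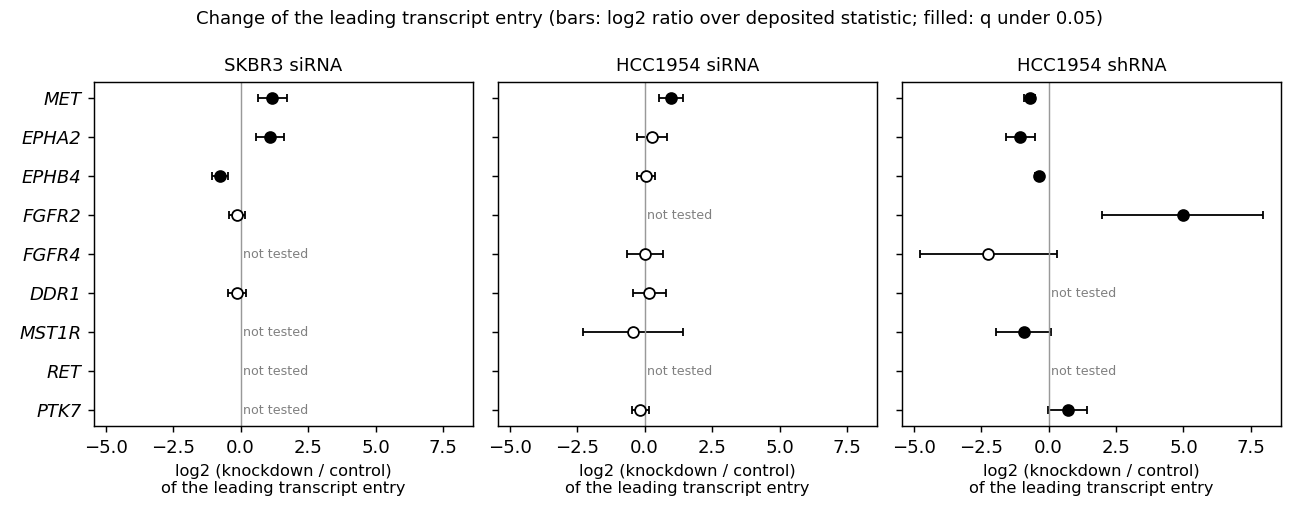
Log2 ratio of knockdown over control for the leading transcript entry of each receptor (horizontal axis) in the 3 comparisons; bars are ± 1 SE, taken as the log2 ratio over the deposited statistic, and filled points have a deposited q under 0.05. MET lies at 1.18 and 0.99 after siRNA and at −0.70 after shRNA, and FGFR2 after shRNA lies farthest from 0 with the widest bar.

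FGFR2 and FGFR4 are receptors of fibroblast growth factors. FGFR2 (GRCh37 chr10:123237846-123357972, minus strand) was a receptor of SKBR3 cells: it read 10.9 FPKM in siNT and 10.99 FPKM in siAP2C, and its leading entry was not called (log2 ratio −0.13 ± 0.29, q = 0.546 in the authors' deposited table). HCC1954 siNT cells held 0.356 FPKM, 30.5-fold less than SKBR3 siNT cells, and siAP2C cells held 0.374 FPKM with no entry tested. In the clones FGFR2 rose from 1.08 to 7.47 FPKM, 6.91-fold. The FGFR2 of shAP2C cells was thus nearer to the level of SKBR3 cells than to that of HCC1954 siNT cells. For PTK7 the reverse held, with 84.6 FPKM in shAP2C, 2.48 FPKM in SKBR3 siNT and 74.2 FPKM in HCC1954 siNT cells.

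In SKBR3 and in shAP2C cells most FGFR2 mRNA was assigned to a single entry, NM_022970, which encodes the epithelial IIIb form of the receptor. It made up 73.5% of FGFR2 in SKBR3 siNT cells and 66.3% in siAP2C cells. In the clones it rose from 0.153 to 4.83 FPKM and from 14.1% to 64.6% of the sum, a log2 ratio of 4.98 ± 2.98 (SE) with q = 0.00457 in the authors' deposited table. The shNT value of NM_022970 is low, and with 1 FPKM added to both groups the log2 ratio of the FGFR2 sum was 2.02 in place of 2.79.

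FGFR4 (GRCh37 chr5:176513906-176525145, plus strand), which binds FGF19 with the co-receptor KLB, was higher in HCC1954 than in SKBR3. It read 4.52 and 2.59 FPKM in SKBR3 siNT and siAP2C, where no entry was tested. In HCC1954 siRNA cells it read 31.4 and 45.5 FPKM, and its leading entry NM_022963 was 19.4 and 19.6 FPKM (q = 0.991 in the authors' deposited table). In the clones the sum was 23.1 FPKM in shNT and 11.4 FPKM in shAP2C. Its leading entry there, NM_213647, was 9.21 and 1.97 FPKM and lay just outside the threshold (q = 0.0504 in the authors' deposited table).

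**Figure D3:**
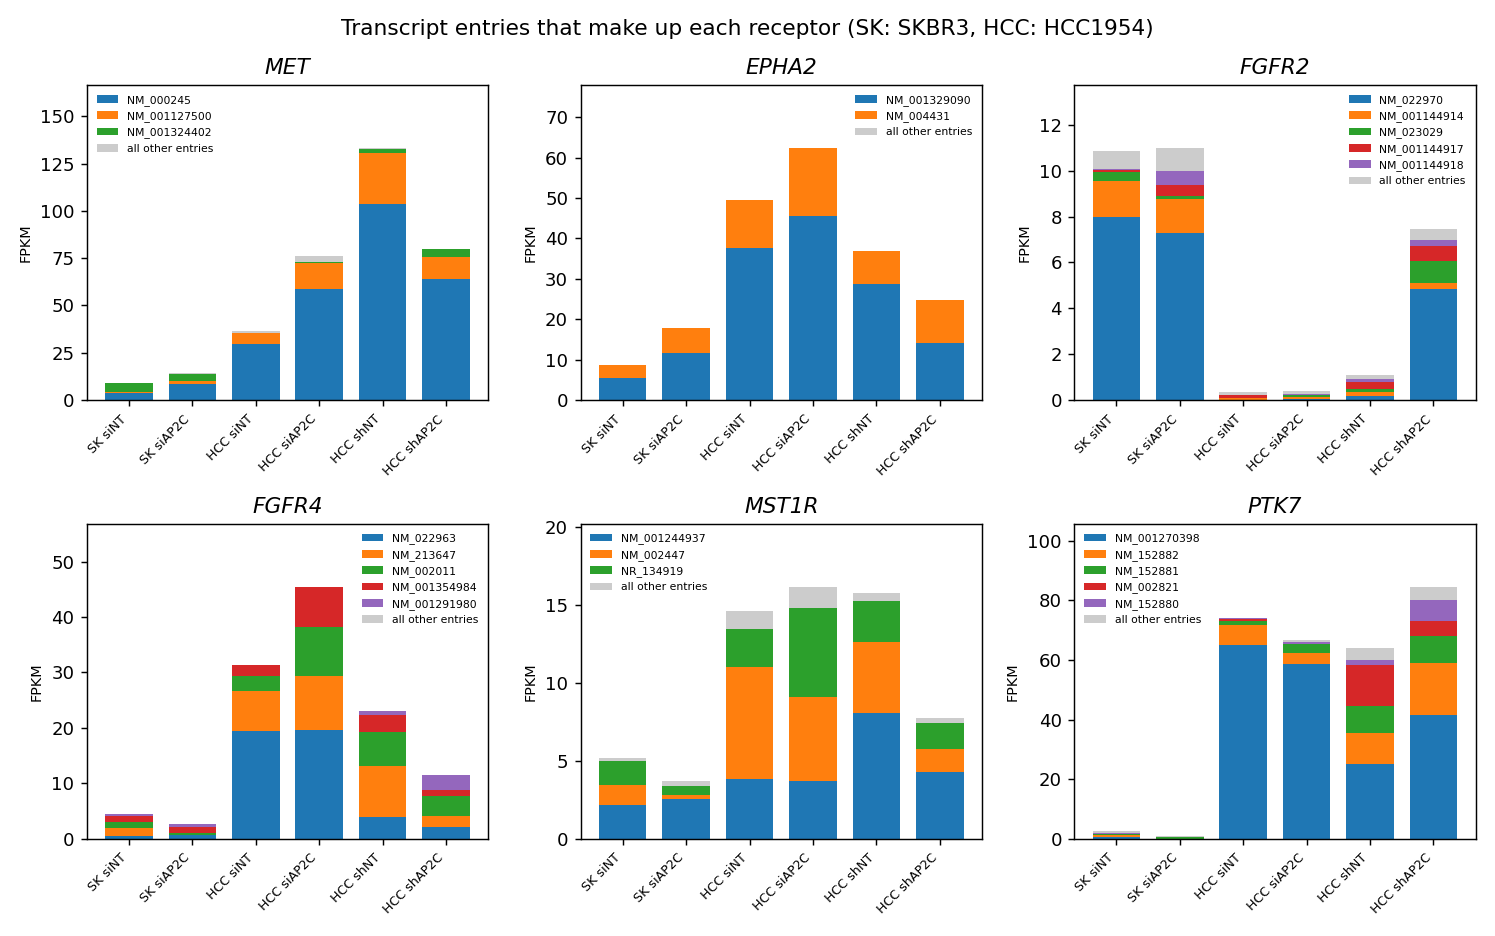
FPKM of the RefSeq transcript entries of 6 receptors stacked to the summed level (vertical axis, linear, a separate scale per panel) in the 6 groups. Colours show the entries with the most FPKM among those with at least 10% of the sum in some group. Grey holds all the rest, which for FGFR2 and PTK7 includes further entries past 10% in some group. FGFR2 is mostly NM_022970 in SKBR3 and in shAP2C cells, and PTK7 of HCC1954 siRNA cells is mostly NM_001270398, which is spread over several entries in the clones.

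DDR1, RET and PTK7 differ most from the growth factor receptors. DDR1 is a collagen receptor, RET needs a GFRA co-receptor to bind its ligands, and PTK7 is a pseudokinase that takes part in Wnt and planar polarity signalling. DDR1 (GRCh37 chr6:30844198-30867933, plus strand) was the steadiest of the 9 over groups, from 9.59 to 21.2 FPKM. It read 21.2 and 19.6 FPKM in SKBR3 siNT and siAP2C (q = 0.567 in the authors' deposited table), and 18.5 and 17.4 FPKM in HCC1954 siNT and siAP2C (q = 0.8503 in the authors' deposited table). In the clones it read 10.9 and 9.59 FPKM with no entry tested. The tables place DDR1 on a haplotype copy of chromosome 6, so reads could have been shared between copies and its level is uncertain.

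PTK7 (GRCh37 chr6:43044045-43129457, plus strand) separated the lines as FGFR2 did, in the opposite direction. It read 2.48 and 1.04 FPKM in SKBR3 siNT and siAP2C, with no entry tested, and 74.2 and 66.7 FPKM in HCC1954 siNT and siAP2C. HCC1954 siNT cells thus held 29.9-fold more PTK7 than SKBR3 siNT cells. The leading entry NM_001270398 was not called with siRNA (log2 ratio −0.15 ± 0.33, q = 0.764 in the authors' deposited table). In the clones PTK7 rose from 64.1 to 84.6 FPKM, 1.32-fold. The leading entry went from 25.2 to 41.4 FPKM (log2 ratio 0.72 ± 0.72, q = 0.00813 in the authors' deposited table). That SE, taken from the deposited statistic, is as large as the ratio. Of 5 tested PTK7 entries, the leading one alone was called. The entries did not move alike there: NM_002821 read 13.8 and 4.75 FPKM (q = 0.109 in the authors' deposited table).

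RET (GRCh37 chr10:43572512-43625799, plus strand) was close to absent except in the clones, and no entry of it was tested in any table. It read 0.0210 FPKM in SKBR3 siNT and was listed at 0 in siAP2C, and it read 0.0607 and 0.0177 FPKM in HCC1954 siNT and siAP2C. In shNT cells it read 0.350 FPKM and in shAP2C cells 2.81 FPKM, 8.03-fold more, of which NM_020975 gave 2.06 FPKM. With 1 FPKM added to both groups its log2 ratio there was 1.497 in place of 3.01. With no test, this difference is a description of 2 pooled groups.

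The order of the groups differed between receptors, and levels of separate tables were normalized separately. MET was highest in shNT cells, then shAP2C, then siAP2C and siNT cells of HCC1954, and lowest in SKBR3. The HCC1954 controls themselves were unlike: shNT cells held 3.64-fold more MET, 3.03-fold more FGFR2 and 5.76-fold more RET than siNT cells, and MST1R was 1.08-fold higher. The other 5 receptors were lower in shNT cells, at 0.591 times the siNT level for DDR1, 0.668 for EPHB4, 0.735 for FGFR4, 0.748 for EPHA2 and 0.864 for PTK7. The fall of MET in the clones started from a control above every other group, and the knockdown cells of HCC1954 read 80.0 FPKM with shRNA and 76.0 FPKM with siRNA. MET, EPHA2, EPHB4, FGFR4, MST1R and PTK7 had all 4 HCC1954 groups above both SKBR3 groups. FGFR2 and DDR1 had both SKBR3 groups above all HCC1954 groups. With pooled values, no neighbours in these orders can be said to differ beyond their spread, other than a control and its own knockdown where the deposited test called them.

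To set the receptors against HER2, their levels were compared with that of ERBB2. ERBB2 fell in SKBR3 from 1109 to 609 FPKM and in the clones from 1525 to 20.8 FPKM, 73.3-fold lower. With siRNA in HCC1954 it read 4676 and 4016 FPKM and was not called (q = 0.872 in the authors' deposited table). The 9 receptors together came to 80.6 and 81.0 FPKM in SKBR3 siNT and siAP2C, so that ERBB2 stood at 13.8 times their sum before and 7.52 times after knockdown. In HCC1954 siRNA cells the sum was 279 and 340 FPKM, and ERBB2 stood at 16.8 and 11.8 times it. In shNT cells ERBB2 was 4.74 times the sum of 321 FPKM. In shAP2C cells the order turned over: the sum was 257 FPKM, 12.3 times ERBB2. There, 4 of the 9 receptors were above ERBB2, namely PTK7 at 407% of it, MET at 385%, EPHB4 at 135% and EPHA2 at 119%. PTK7, a pseudokinase, made up 33.0% of that sum. In the other 5 groups 0 of the 9 were. The shift lay in ERBB2, since the sum of the 9 was lower in shAP2C than in shNT cells.

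**Figure D4:**
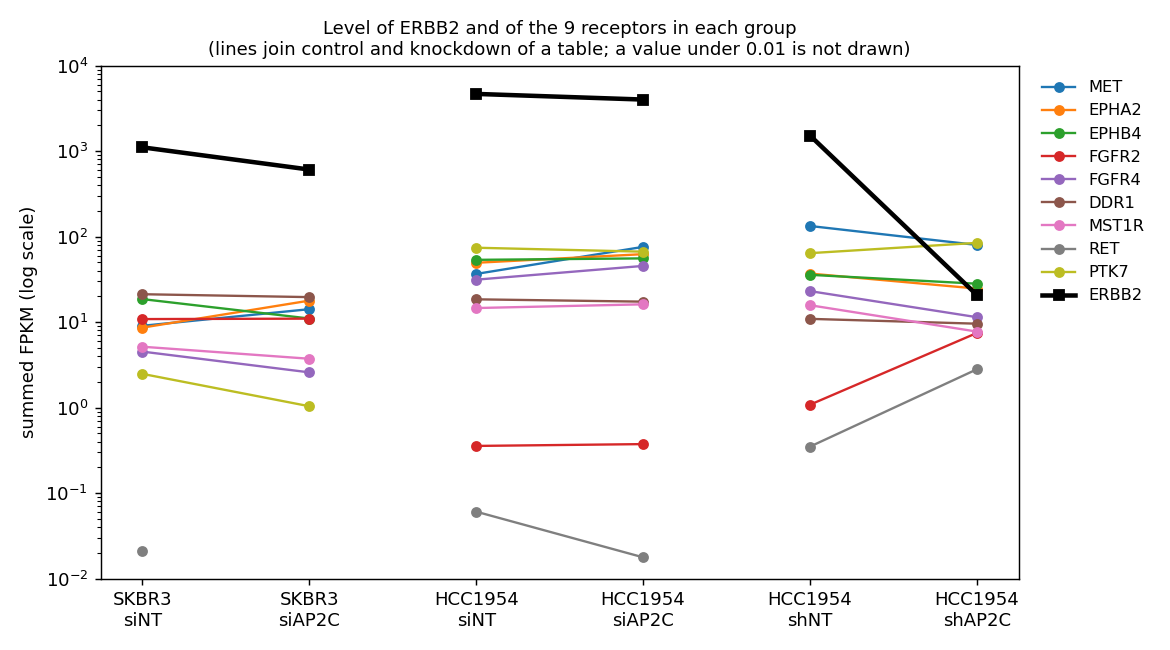
Summed FPKM (vertical axis, log scale) of ERBB2 (black squares) and of each of the 9 receptors (coloured circles) in the 6 groups, with lines joining the control and the knockdown of a table; values under 0.01 FPKM are not drawn. ERBB2 lies above all 9 in 5 groups, and in shAP2C cells at 20.8 FPKM it lies below PTK7, MET, EPHB4 and EPHA2.

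Among all 58 receptor tyrosine kinases ranked by summed FPKM, ERBB members included, MET moved from rank 13 to rank 8 in SKBR3 and from rank 6 to rank 2 in HCC1954 with siRNA. It kept rank 2 in both clones. Among the 9, MET made up 11.3% of the sum in SKBR3 siNT and 17.5% in siAP2C, 13.1% and 22.3% in the HCC1954 siRNA groups, and 41.5% and 31.2% in shNT and shAP2C. The receptor with most mRNA of the 9 was DDR1 in both SKBR3 groups, PTK7 in HCC1954 siNT, MET in siAP2C and shNT, and PTK7 in shAP2C cells. The 9 held 42.7% and 47.0% of all non-ERBB receptor FPKM in SKBR3 siNT and siAP2C and 65.4% to 77.3% in the HCC1954 groups. At least 1 FPKM was reached by 8 of the 9 in both SKBR3 groups and shNT cells, by 7 in both HCC1954 siRNA groups and by all 9 in shAP2C cells.

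The other ERBB receptors were read in the same way, with no test of a difference from MET. EGFR read 27.5 and 39.7 FPKM in SKBR3 and was not called (q = 0.0990 in the authors' deposited table), read 23.2 and 24.1 FPKM in HCC1954 siRNA cells, and fell from 33.5 to 19.4 FPKM in the clones. ERBB3, the partner of HER2 that lacks strong kinase activity of its own, rose in SKBR3 from 51.8 to 62.7 FPKM. It read 38.8 and 44.7 FPKM in HCC1954 siRNA cells and fell from 13.7 to 12.5 FPKM in the clones. ERBB4 stayed at or under 0.0274 FPKM in every group.

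A call in one comparison and none in another does not show a difference, so differences between comparisons were tested directly, with 1 entry per gene and the SE from the deposited statistic. Between the siRNA comparisons of SKBR3 and HCC1954, 0 of 4 receptors differed, against 0.494% of 9109 genes, and 0 of the 4 had an unadjusted p under 0.05. For MET, the rise of the entry NM_000245 was 0.20 ± 0.70 log2 units (SE) larger in SKBR3, with an adjusted p of 1.00 by this z-test, which leaves a wide interval. By summed FPKM the order was the other way, with log2 ratios of 0.65 in SKBR3 and 1.05 in HCC1954. EPHB4 differed by −0.81 ± 0.44 (SKBR3 minus HCC1954), with a raw p of 0.0629 and an adjusted p of 1.00 by the z-test. EPHA2 differed by 0.83 ± 0.76 and DDR1 by −0.32 ± 0.69. With the SE taken from the deposited p-values instead, EPHB4 alone of the 4 passed (adjusted p = 0.00748 by the z-test on the authors' deposited table), where 12.1% of all genes did.

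Between siRNA and shRNA in HCC1954, 1 of 6 receptors differed, against 13.4% of 8822 genes. It was MET, whose log2 ratios were 1.68 ± 0.49 apart (siRNA minus shRNA, z = 3.42, adjusted p = 0.00751 by the z-test on the authors' deposited table). The differences of EPHA2 (1.32 ± 0.77), EPHB4 (0.40 ± 0.36), FGFR4 (2.66 ± 2.82), MST1R (0.88 ± 1.85) and PTK7 (−0.87 ± 0.79) did not pass. With the SE from the deposited p-values, 5 of the 6 passed, all but MST1R, where 48.7% of all genes did. MET passed under both.

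Genes that work with the 9 receptors were taken as 8 lists. Their counts are to be read against the shares of all tested genes that were called, 33.2% in SKBR3, 3.21% in HCC1954 with siRNA and 75.5% in the clones. The ligands of MET and MST1R are made as inactive precursors that proteases cut to the active form. HGF was at or under 0.00722 FPKM in every group, and MST1, the MST1R ligand, was between 0.395 and 1.19 FPKM, so these cells had close to no HGF mRNA of their own. Of the 15 genes of ligand and processing, 1 of 9 tested rose and 3 fell in SKBR3, with a median log2 ratio of −0.09, that of all tested genes. There, the heparan sulfate carrier SDC1 fell from 371 to 199 FPKM and the activating protease ST14 from 106 to 77.9 FPKM. With siRNA in HCC1954 1 of 12 rose, the protease PLAU, from 40.2 to 64.1 FPKM. In the clones 1 of 9 rose and 7 fell (75.5% of all genes called; median log2 ratio −0.54), among them the protease inhibitor SPINT1, from 191 to 43.6 FPKM, and PLAU, from 33.9 to 18.8 FPKM.

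Ephrins were present in all groups. In SKBR3 2 of 4 tested fell and 0 rose: EFNA3, from 13.3 to 7.98 FPKM, and EFNA5, from 2.88 to 2.06 FPKM. In HCC1954 siRNA cells 1 of 6 changed: EFNB2, the ligand of EPHB4, rose from 2.84 to 7.54 FPKM. EFNB2 also rose in the clones, from 8.65 to 16.4 FPKM, with 5 of 7 tested ephrins rising and 1 falling, where 36.4% of all genes rose and 39.1% fell. The one that fell was EFNA1, a ligand of EPHA2, from 116 to 13.5 FPKM. In SKBR3 EFNA1 stood at 185 and 190 FPKM and was not called.

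FGF ligands were mostly at low levels, and FGF7 and FGF10, the ligands that favour the IIIb form of FGFR2, stayed at or under 0.0481 FPKM in every group. Other FGF ligands were not absent. FGF1 read 1.39 and 5.66 FPKM in SKBR3 siNT and siAP2C cells, and FGF2 and FGF9 read 3.27 and 3.57 FPKM in shAP2C cells. No entry of FGF1, FGF2 or FGF9 was tested. Of 24 FGF ligands and co-receptors, 1 of 2 tested rose in SKBR3, the heparan sulfate carrier SDC4, from 103 to 147 FPKM. With siRNA in HCC1954 2 of 6 rose, FGFBP1 from 5.97 to 11.8 FPKM and FGFRL1 from 8.62 to 12.5 FPKM. In the clones 3 of 4 rose and 1 fell, against 75.5% of all genes called. SDC4 was the one that fell there, from 201 to 38.5 FPKM. FGF19, the ligand of FGFR4, rose from 0.0810 to 15.8 FPKM in shAP2C cells while FGFR4 itself was not called. In HCC1954 siNT and siAP2C cells FGF19 read 2.14 and 1.49 FPKM, above the shNT value, and was not called. The co-receptor KLB was low throughout, with its highest value, 0.124 FPKM, in shAP2C cells. FGF19 was picked out after its values were seen.

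For RET, the ligand GDNF was listed at 0 in every group and GFRA1 was at or under 0.00678 FPKM. Of 11 ligands and co-receptors, 1 of 3 tested rose in SKBR3, 1 of 3 in HCC1954 siRNA cells and 2 of 3 in the clones, with 0 falling. Of all tested genes, 12.5%, 2.27% and 36.4% rose. GDF15, a stress-induced relative that acts through GFRAL and RET, rose in all 3 while GFRAL was listed at 0 in every group: from 11.6 to 165 FPKM, from 386 to 785 FPKM and from 10.3 to 57.4 FPKM. NRTN (neurturin) rose in the clones from 1.39 to 7.60 FPKM. Of the 14 collagen genes listed for DDR1, 1 was tested in HCC1954 siRNA cells and was not called, and 0 were tested elsewhere.

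Among 19 PTK7 partners and Wnt receptors, 4 of 9 tested rose and 3 fell in SKBR3, 0 of 11 were called in HCC1954 siRNA cells (1 of 11 at an unadjusted Cuffdiff p under 0.05), and 3 of 11 rose and 4 fell in the clones, where 75.5% of all genes were called. In SKBR3 WNT5A, a ligand of non-canonical Wnt signalling, rose from 14.3 to 36.3 FPKM and the polarity gene VANGL1 fell from 11.01 to 4.61 FPKM. In shAP2C cells MMP14, a protease that cleaves PTK7, rose from 1.40 to 11.2 FPKM and WNT7B fell from 50.1 to 4.73 FPKM.

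Downstream, 6 of 25 tested adaptors and effectors rose and 3 fell in SKBR3, 2 of 28 rose in HCC1954 siRNA cells, and 9 of 24 rose and 11 fell in the clones. These shares lie near the 33.2% and 75.5% of all genes called in SKBR3 and in the clones. IRS1, an adaptor of the insulin and IGF receptors, rose in all 3, from 5.64 to 11.99 FPKM, from 1.37 to 3.004 FPKM and from 7.29 to 19.6 FPKM. GAB2, an adaptor that links receptors to PI3K, rose in SKBR3 from 3.08 to 8.23 FPKM. GAB1, the main adaptor of MET, was 5.22 and 4.45 FPKM in SKBR3 and was not called. STAT3 fell in the clones from 68.01 to 14.4 FPKM and STAT5B from 12.8 to 1.48 FPKM.

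Negative regulators rose in 5 and fell in 1 of 17 tested in SKBR3, with a median log2 ratio of 0.22 against −0.09 over all tested genes. LRIG1, which promotes loss of MET and ERBB receptors from the membrane, fell in all 3 comparisons: from 7.04 to 3.94 FPKM in SKBR3, from 21.8 to 14.6 FPKM in HCC1954 with siRNA and from 7.23 to 2.91 FPKM in the clones. It was the only one of 19 called in HCC1954 siRNA cells. In the clones 6 of 17 rose and 8 fell. Both counts are near the 33.2% and 75.5% of all genes called. ERRFI1, a feedback inhibitor of ERBB receptors, rose in SKBR3 from 16.6 to 40.2 FPKM and in the clones from 102 to 255 FPKM.

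Of the 45 remaining receptor tyrosine kinases, 3 of 10 tested rose and 4 fell in SKBR3, among them CSF1R, which fell from 19.1 to 6.18 FPKM. In HCC1954 siRNA cells 1 of 11 was called, MERTK, which rose from 1.69 to 3.17 FPKM. In the clones 5 of 9 rose and 3 fell. All tested genes were called in 33.2%, 3.21% and 75.5% of cases in these comparisons. In the clones FGFR3 rose from 1.88 to 9.90 FPKM and AXL, a receptor of GAS6, from 2.57 to 12.2 FPKM. FGFR3 went the other way in SKBR3, where it fell from 4.15 to 0.492 FPKM. ROR2 also rose in the clones, from a listed 0 to 11.3 FPKM. FGFR1 read 2.45 FPKM in shNT and 15.5 FPKM in shAP2C cells, with no entry tested.

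**Figure D5:**
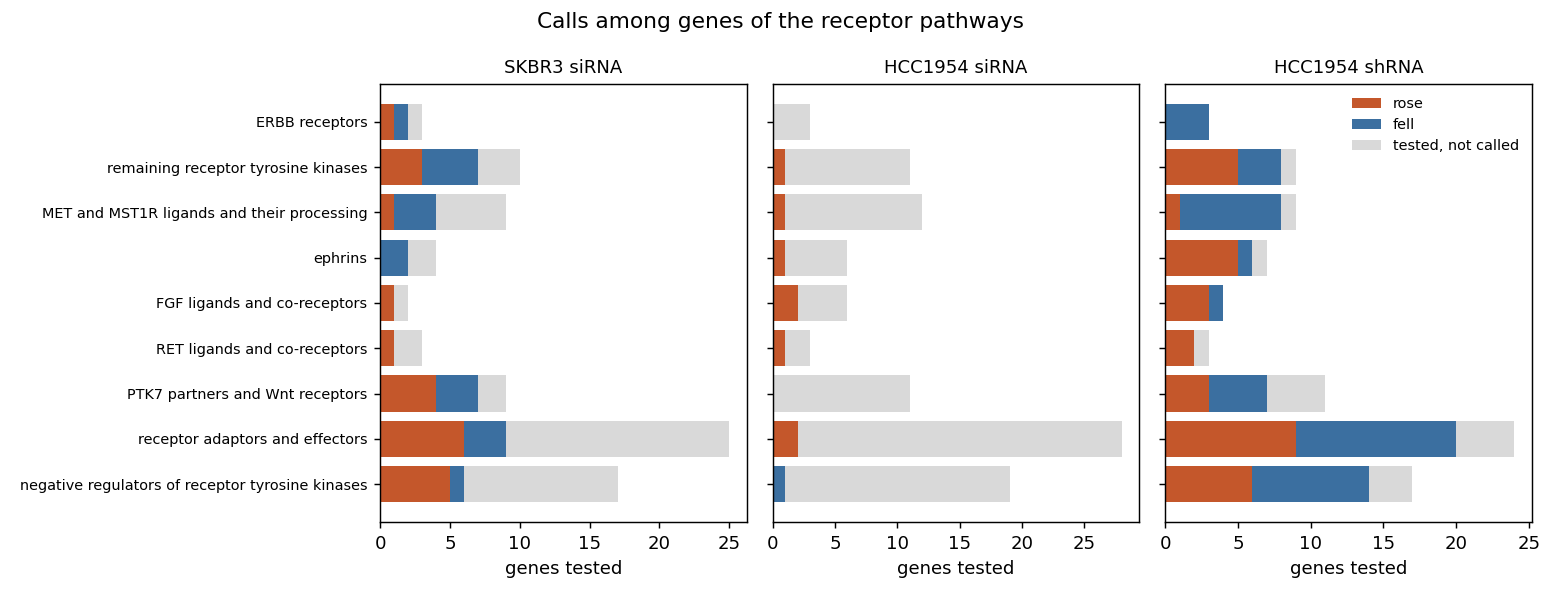
Number of tested genes (horizontal axis) of each receptor pathway list that rose (orange), fell (blue) or were tested and not called (grey) in the 3 comparisons. HCC1954 siRNA has 0 to 2 calls a list, and in the clones most tested genes of most lists were called, as were 75.5% of all tested genes.

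For each receptor, the genes with the most similar set of 3 log2 ratios of summed FPKM were found among 10206 genes with at least 1 FPKM in all 6 groups (10207 for FGFR2), by root mean square distance in log2 units. MET was nearest to TNFSF9 (distance 0.0770) and ERCC5 (0.134), EPHA2 to GADD45B (0.0689) and ERN1 (0.0838), and EPHB4 to POLE3 (0.0410) and SREBF1 (0.0511). TNFSF9 had log2 ratios of 0.65, 1.18 and −0.75 beside 0.65, 1.05 and −0.74 for MET. FGFR2 was nearest to MAGEA2B (0.0877) and ZNF251 (0.0976), FGFR4 to FKBP11 (0.141) and MT1X (0.152), and DDR1 to DDX23 (0.00920) and HTRA2 (0.0159). MST1R was nearest to TMX2 (0.0290) and UCHL3 (0.0328), and PTK7 to SLC25A1 (0.0688) and FAIM (0.0856). RET had no ratio in SKBR3, where it was listed at 0. With 3 points a gene, small distances among so many genes are a description only.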

How the data were processed

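TruSeq RNA libraries were sequenced, per the labels' protocols. The submitters' processing notes name Bowtie 0.12.2, Cuffdiff without a version, and hg19 (GRCh37). Per the file headers, the authors gave 1 pooled FPKM per group and RefSeq entry. The deposited test statistic is a score on Cuffdiff's own scale. For every tested entry, the p-value and the q-value are those the authors deposited. The q-values equalled a Benjamini-Hochberg adjustment over tested entries, with 0 calls that differed.

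The tables hold 66321 entries, of which 65468 matched a symbol through RefSeq names (GRCh38.p14, for names and promoters), and 853 did not. FPKM was summed per symbol, with no pseudocount or filter. Gene positions come from GENCODE on GRCh37. A sequence comparison is not reported here. Levels and ratios of sums carry no error, depth per sample is unknown, and no model over samples could be fitted. Calls are deposited q under 0.05 for the leading entry. Differences between comparisons used z with Benjamini-Hochberg adjustment over all genes compared, and the SE of each ratio is the ratio over the deposited statistic. Turned into a normal quantile, the deposited p exceeded the statistic by a median factor of 1.99 in SKBR3, 2.46 in HCC1954 with siRNA and 2.88 with shRNA, so this SE is wide. The 3 samples of a group may share a culture, so these p-values may cover technical spread alone.

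The receptors and gene lists were chosen with earlier results of these data known. The genes named are the 9 receptors with their entries of at least 10% of the sum, the ERBB genes and TFAP2C, the nearest 2 genes in pattern, and up to 4 called genes per list and comparison with the largest ratio and at least 1 FPKM in both groups, of which some are left out. Genes named beside these were chosen for their known role, or after their values were seen: HGF, MST1, FGF1, FGF2, FGF7, FGF9, FGF10, FGF19, KLB, GDNF, GFRA1, GFRAL and GAB1. The same holds for EFNA1, EPHB3 and FGFR3 in SKBR3, and for FGFR1, ROR2, IRS1 and LRIG1 in the clones. Python 3.11.15, pandas 2.3.3, numpy 2.4.6, scipy 1.17.1 and matplotlib 3.10.9 were used.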

Additional observations from a re-analysis of the deposited data

Results flagged for a closer look

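The response of MET differed between the ways of knockdown in HCC1954: its log2 ratio with siRNA minus that with shRNA was 1.68 ± 0.49 (SE), with 0.99 for siRNA and −0.70 for shRNA, a difference that passed its own test over all genes. The MET level of the controls was 36.7 FPKM in siNT and 133 FPKM in shNT cells. The part of this difference between controls in the result was not tested.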

How the results depend on the processing

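The counts of called receptors and their directions were the same under every alternative run. These were another entry to stand for a gene, any called entry, a smallest-p test per gene, q under 0.01 and at least 1 FPKM. All of them reuse the p- and q-values that the authors deposited. Every called receptor had at least 1 FPKM in both groups, so that minimum could remove none. The unchanged counts are therefore little check on the calls. The counts of receptors that differ between comparisons moved with the SE: from 0 to 1 (EPHB4) between the lines, and from 1 to 5 between siRNA and shRNA, when it came from the deposited p-values. Of 123 alternative log2 ratios of the receptors, 120 kept their sign and 3 reversed, all for the leading entry alone in place of the sum: FGFR2 in SKBR3 (−0.13 against 0.02), DDR1 in HCC1954 siRNA (0.18 against −0.09) and MST1R in HCC1954 siRNA (−0.42 against 0.14). None of those was called. A further 6 ratios kept their sign and moved in size: RET with 1 FPKM added, from 3.01 to 1.497 in the clones and from −1.77 to −0.06 with siRNA in HCC1954 (−0.45 with 0.1 FPKM), FGFR2 in the clones, from 2.79 to 4.98 for the leading entry and 2.02 with 1 FPKM added, and FGFR4 in the clones, from −1.01 to −2.23 for the leading entry. Subtracting the median log2 ratio of all genes (−0.08 in SKBR3, nearer to 0 in the others) or the trimmed mean changed no sign. No paired analysis was possible because the tables hold 1 pooled value per group, and for the same reason no replicate could be left out. Ratios of RET and of FGFR2 in HCC1954 rest on values near or under 1 FPKM, and their depth is unknown.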
